A study of Homo sapiens with 6 samples.

Results

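Messenger RNA was measured for 50 human genes of mitotic entry, the anaphase-promoting complex (APC/C) and cytokinesis in Huh7 cells, an established line of hepatocellular carcinoma. The genes were chosen by symbol from what their proteins do, and all 50 were found among the 33707 genes of the deposited table. The cells, labelled wild type in genotype, had received miR-361-3p mimics, synthetic copies of a microRNA, or mimics-NC, a negative control, and were taken on day 2, with 3 libraries in each group. Both groups share the transfection with a lipid reagent at 70% density and growth in medium with serum. In the labels the treatment tag of the mimics-NC libraries names wild type cells, while their titles name mimics-NC, and replicate 3 of the miR-361-3p mimics carries the tag Huh8 beside a title with Huh7. No label says that the replicates were separate cultures, so the spread behind each p-value may be technical.

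A cell enters mitosis when cyclin B switches on the kinase CDK1, and leaves it when the APC/C, a ubiquitin ligase of many subunits, marks cyclin B and securin for destruction. Many genes of this programme are transcribed only late in the cell cycle, often through a promoter element called the CHR, which binds the DREAM and MuvB complexes, and through CCAAT boxes, which bind NF-Y. The fixed subunits of the APC/C are instead made throughout the cycle, and the complex is timed by its activators, its inhibitor and phosphorylation. From such textbook knowledge the genes were split into 31 regulated genes, 13 APC/C core subunits and 6 genes assigned to neither (WEE1, MASTL, ENSA, ARPP19, FZR1 and CKAP5). The split, like the choice of genes, was made with earlier results of these data known, so counts by class are a description. In a population of cells, fewer mitotic cells and less RNA per mitotic cell cannot be told apart.

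Libraries held 35020139 to 44774192 assigned reads in the miR-361-3p mimics group and 42196419 to 52977132 in the mimics-NC group. The members rested on at least 156 reads in every library, and their mean ran between 240 reads (BORA) and 70087 reads (MKI67). Of 13 markers of hepatocytes and liver tumours, 12 were abundant enough to be tested and none was called, although 1 had an unadjusted p under 0.05, and TTR lay under 1 RPKM. AFP was barely above that limit, with a mean of 1.18 RPKM in the mimic libraries and 1.24 RPKM in the mimics-NC libraries. The summed level of the 13 was 3537 to 3648 RPKM in the mimic libraries and 3705 to 3816 RPKM in the mimics-NC libraries. FGB made up much of this sum, with a mean of 1947 RPKM in the mimic libraries and 2106 RPKM in the mimics-NC libraries. Of the 12 tested, 10 had a log2 difference below 0 and 2 had one above it. PTPRC, CD3E and CD14 of immune cells and VWF, CDH5, KDR and TEK of endothelial cells were at or near 0, whereas CD68, LYZ and PECAM1 were present at similar levels in both groups. The 6 fibroblast markers summed to 1.80 to 2.35 RPKM in the mimic libraries and to 2.28 to 4.08 RPKM in the mimics-NC libraries, and their part in the results was not tested.

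The sequence of the microRNA and of its sites in member transcripts are shown because microRNAs are known to pair with transcripts mainly through the seed. Mature miR-361-3p (chrX:85903641-85903663, GRCh38.p14, minus strand, RefSeq) has its seed, bases 2 to 8, in capitals below. The sequence of the mimic itself is not given in the sources used here.
miR-361-3p: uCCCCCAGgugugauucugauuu
In the 3′ UTRs of members, 8mer sites (CTGGGGGA, the complement of the seed followed by A) stood in MKI67 (chr10:128097270-128097299, minus strand), CDC25B (chr20:3805307-3805336, plus strand), FZR1 (chr19:3536262-3536291, plus strand) and ANAPC11 (chr17:81900742-81900771, plus strand). Of the shorter sites, the 7mer-m8 site (CTGGGGG) of PRC1 (chr15:90966762-90966790, minus strand) is shown. All coordinates are on GRCh38, and the capitals mark the site.
MKI67: cctccttggtaCTGGGGGAgggagagatct
CDC25B: gtcagctgaggCTGGGGGAgagccgtggtc
FZR1: acccactgctcCTGGGGGAtgaggtcctgg
ANAPC11: ggaaggggccgCTGGGGGAgtggcagcccc
PRC1: tatgcccatccCTGGGGGtaattttggca

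Promoters of 5 members are shown because the regulated and the fixed genes differed in the motifs they hold. Each stretch has the 250 bases before and the 50 bases after the RefSeq start site (GRCh38.p14), and capitals mark matches on either strand to the CHR (TTTGAA, with the variant TTCGAA), the CCAAT box (CCAAT) or E2F-like motifs. The E2F-like motifs searched were TTTCCCG, the variant TTTGGCG, the variant TTTCGCG and the variant TTTGCCG. The start sites of RefSeq can lie inside the span that the deposited table gives a gene. PLK1 (chr16:23678639-23678938, plus strand), CCNB2 (chr15:59104896-59105195, plus strand) and ESPL1 (chr12:53268049-53268348, plus strand) hold a CHR whose first base lies 29, 29 and 31 bases before the start, each with a CCAAT box upstream of it. ANAPC13 (chr3:134485974-134486273, minus strand), which rose, holds no match to any of the 3 motifs, and ENSA (chr1:150629563-150629862, minus strand), which also rose, holds CCAAT boxes without a CHR.
PLK1: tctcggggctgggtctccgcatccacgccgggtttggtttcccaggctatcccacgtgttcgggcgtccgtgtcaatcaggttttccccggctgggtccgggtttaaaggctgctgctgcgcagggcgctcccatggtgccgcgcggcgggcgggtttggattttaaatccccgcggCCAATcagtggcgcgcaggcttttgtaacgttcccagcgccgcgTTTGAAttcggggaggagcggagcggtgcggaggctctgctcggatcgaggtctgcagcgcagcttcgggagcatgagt
CCNB2: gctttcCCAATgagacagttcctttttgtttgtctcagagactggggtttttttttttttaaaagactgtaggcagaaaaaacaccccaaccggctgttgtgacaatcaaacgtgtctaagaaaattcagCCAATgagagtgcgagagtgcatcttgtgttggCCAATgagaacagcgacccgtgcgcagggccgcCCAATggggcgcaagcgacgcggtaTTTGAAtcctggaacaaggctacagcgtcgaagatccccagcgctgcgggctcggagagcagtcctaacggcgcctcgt
ESPL1: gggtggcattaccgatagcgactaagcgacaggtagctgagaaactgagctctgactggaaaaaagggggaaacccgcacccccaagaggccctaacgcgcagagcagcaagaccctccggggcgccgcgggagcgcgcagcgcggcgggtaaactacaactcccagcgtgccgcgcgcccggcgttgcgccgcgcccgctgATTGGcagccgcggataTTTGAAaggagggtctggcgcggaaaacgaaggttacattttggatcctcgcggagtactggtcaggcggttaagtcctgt
ANAPC13: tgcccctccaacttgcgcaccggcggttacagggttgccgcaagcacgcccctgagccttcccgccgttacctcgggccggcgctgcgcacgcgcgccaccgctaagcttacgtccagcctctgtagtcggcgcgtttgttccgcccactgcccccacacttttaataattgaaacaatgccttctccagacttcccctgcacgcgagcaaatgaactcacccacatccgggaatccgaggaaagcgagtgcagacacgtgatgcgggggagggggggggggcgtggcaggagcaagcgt
ENSA: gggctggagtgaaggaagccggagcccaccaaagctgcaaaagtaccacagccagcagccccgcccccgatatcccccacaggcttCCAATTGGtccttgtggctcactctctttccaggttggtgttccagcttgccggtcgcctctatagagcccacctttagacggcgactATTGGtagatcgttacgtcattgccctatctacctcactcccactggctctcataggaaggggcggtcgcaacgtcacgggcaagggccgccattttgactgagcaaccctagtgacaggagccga

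All 31 regulated genes fell in the cells with miR-361-3p mimics, while 10 of the 13 APC/C core subunits did not pass the test in either direction. Of the 50 members, 37 fell, 2 rose (ENSA and ANAPC13) and 11 were not called by limma at an adjusted p under 0.05, with all genes of at least 1 RPKM tested together. Among the 13158 genes tested, 9.85% fell and 11.7% rose (21.5% in either direction). The median log2 difference was -0.48 over the regulated genes, -0.091 over the core subunits and 0.012 over all genes tested. On this scale, log2(RPKM + 0.5), differences of low genes are drawn toward 0. In 39 members all mimic libraries lay below all mimics-NC libraries, in 3 they lay above and in 8 the groups overlapped, whereas 19.1% of all genes tested lay wholly below and 22.3% wholly above. Without the library tagged Huh8 the same numbers passed, 37 lower and 2 higher, and among the regulated genes 31 fell.

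**Figure D1:**
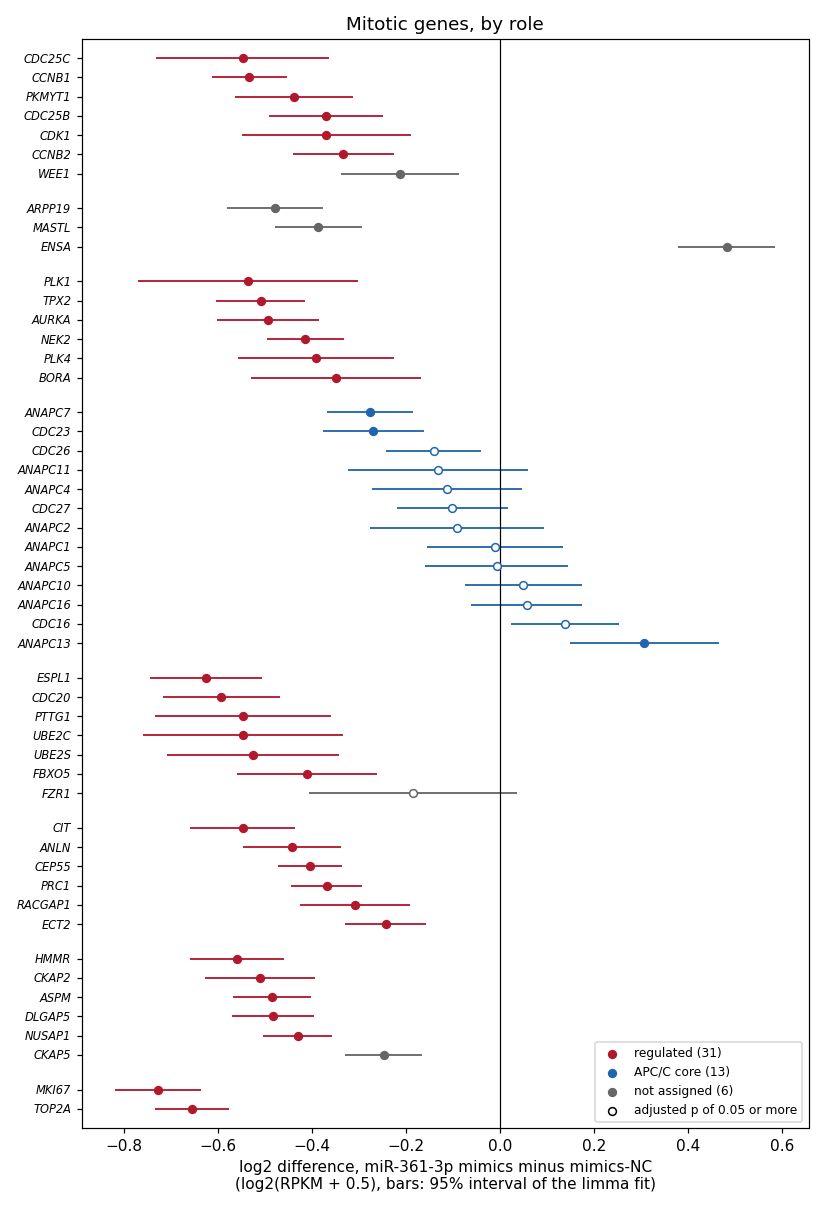
Log2 difference (miR-361-3p mimics minus mimics-NC, 3 libraries each) of the 50 members, in blocks by role, with bars for the 95% interval of the limma fit; filled points passed an adjusted p of 0.05. The 31 regulated genes (red) all lie left of 0, from -0.73 to -0.24, while the core subunits (blue) lie on both sides of it.

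The gap between the 2 classes separated the libraries of the groups. Regulated genes averaged 0.70, 0.68 and 0.74 log2 units above the core subunits in the mimic libraries, against 1.09, 1.13 and 1.18 in the mimics-NC libraries. The RPKM of the 31 regulated genes summed to 746, 738 and 749 in the mimic libraries, against 1061, 1035 and 1071 in the mimics-NC libraries. The 13 core subunits summed to 163, 162 and 155 RPKM in the mimic libraries, against 171, 169 and 165 RPKM in the mimics-NC libraries. The sums of the regulated genes lay far apart between groups, whereas those of the core subunits, though they did not overlap, lay close together. CDC26 weighs most in the core sum, with a mean of 62.1 RPKM in the mimic libraries and 68.5 RPKM in the mimics-NC libraries. The mean log2 level of the core subunits did overlap, at 3.1587, 3.1743 and 3.1235 in the mimic libraries, against 3.2509, 3.1717 and 3.1703 in the mimics-NC libraries. No library of either group stood apart in the gap. These averages were taken over genes chosen with their values known, and no test was made of them.

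**Figure D2:**
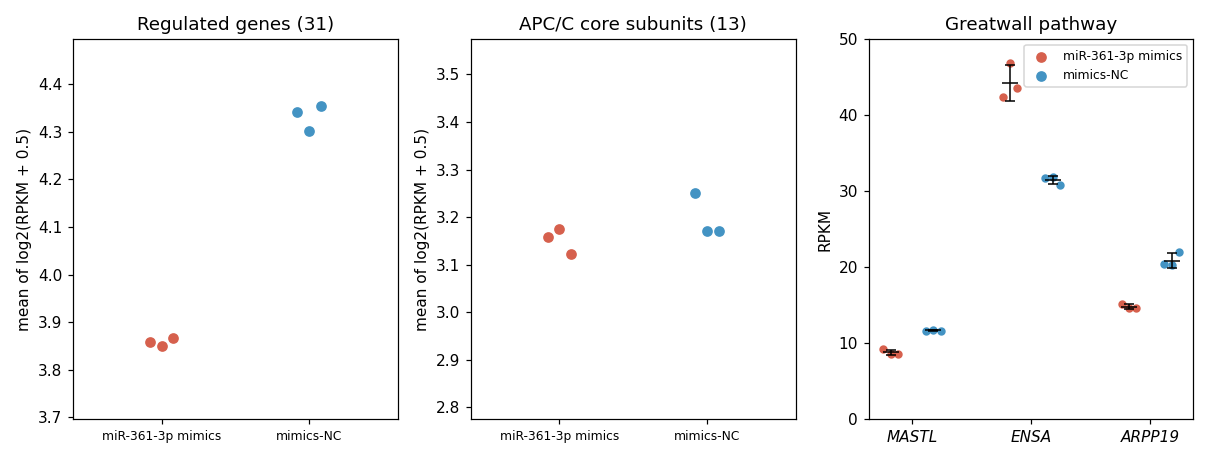
Left and middle, mean log2(RPKM + 0.5) of the 31 regulated genes and of the 13 APC/C core subunits in each library (1 point a library, both axes spanning the same range); right, RPKM of the Greatwall pathway genes with mean and SD (n = 3). The regulated genes separate the groups widely, and ENSA is higher with miR-361-3p mimics while MASTL and ARPP19 are lower.

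The 7 genes of the CDK1 switch all fell, and their log2 differences ran between -0.55 (CDC25C) and -0.21 (WEE1). CCNB1 (chr5:69167010-69178245, plus strand), the main cyclin B, had 39.1, 38.2 and 37.2 RPKM in the mimic libraries, against 55.7, 54.4 and 56.3 RPKM in the mimics-NC libraries. The groups did not overlap, and the log2 difference was -0.53 ± 0.0338 (SE; adjusted p = 0.000290). CCNB2 (chr15:59105078-59125045), the second B cyclin, had 9.10, 8.99 and 9.67 RPKM in the mimic libraries, against 11.9, 11.3 and 12.2 RPKM in the mimics-NC libraries. It fell by less than CCNB1, with a log2 difference of -0.33 ± 0.0454 (SE; adjusted p = 0.00329), and the difference between both genes was not tested. CDK1 (chr10:60778331-60794852), the kinase that both cyclins activate, had 22.6, 20.5 and 23.2 RPKM in the mimic libraries, against 25.9, 29.2 and 31.2 RPKM in the mimics-NC libraries. Its groups lay apart, with mimics-NC replicate 1 the nearest to the mimic libraries, and the log2 difference was -0.37 ± 0.0761 (SE; adjusted p = 0.0156). Without mimics-NC replicate 2 that call was lost (adjusted p = 0.0554).

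The phosphatases that remove the inhibitory phosphates from CDK1 and the kinases that add them fell alike in direction. CDC25C (chr5:138285265-138338355), an activating phosphatase, had 2.40, 1.99 and 2.36 RPKM in the mimic libraries, against 3.51, 3.30 and 3.74 RPKM in the mimics-NC libraries. Its log2 difference was -0.55 ± 0.0784 (SE; adjusted p = 0.00391), the lowest of the switch. CDC25B (chr20:3786772-3806121), which starts CDK1 activation at the centrosome and holds an 8mer site, had 2.73, 2.73 and 2.95 RPKM in the mimic libraries, against 3.88, 3.75 and 3.69 RPKM in the mimics-NC libraries, a log2 difference of -0.37 ± 0.0514 (SE; adjusted p = 0.00353). PKMYT1 (chr16:2968024-2980539), a membrane-bound inhibitory kinase of CDK1, had 2.04, 1.94 and 2.06 RPKM in the mimic libraries, against 2.97, 2.80 and 2.95 RPKM in the mimics-NC libraries. Its log2 difference was -0.44 ± 0.0537 (SE; adjusted p = 0.00217), and 1233 exon bases of it are shared with PAQR4 on the opposite strand, which also fell (-0.39). WEE1 (chr11:9573681-9593457), the nuclear inhibitory kinase, had 3.05, 2.90 and 3.22 RPKM in the mimic libraries, against 3.51, 3.69 and 3.66 RPKM in the mimics-NC libraries. Its groups lay apart, with a log2 difference of -0.21 ± 0.0534 (SE; adjusted p = 0.0308). This call was lost without any 1 of the libraries except mimic replicate 3 (adjusted p up to 0.0947).

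In the Greatwall pathway, which shuts off the phosphatase PP2A-B55 during mitosis, the kinase and 1 of its 2 substrates fell while the other rose. MASTL (chr10:27154824-27186924), the Greatwall kinase, had 9.20, 8.64 and 8.65 RPKM in the mimic libraries, against 11.7, 11.8 and 11.6 RPKM in the mimics-NC libraries. Every mimic library lay below every mimics-NC library, and the log2 difference was -0.39 ± 0.0394 (SE; adjusted p = 0.00110). ENSA (chr1:150600851-150629612, minus strand), which blocks PP2A-B55 once MASTL has phosphorylated it, had 42.3, 46.8 and 43.5 RPKM in the mimic libraries, against 31.7, 31.8 and 30.8 RPKM in the mimics-NC libraries. It was the member with the largest rise, 0.48 ± 0.0442 (SE; adjusted p = 0.000729), in all 3 mimic libraries. ARPP19 (chr15:52547045-52569883), the close relative of ENSA with the same action, had 15.2, 14.7 and 14.6 RPKM in the mimic libraries, against 20.4, 20.3 and 22.0 RPKM in the mimics-NC libraries. It fell by a similar size, -0.48 ± 0.0430 (SE; adjusted p = 0.000669), so the related pair moved in opposite directions. The ratio of ENSA to ARPP19, computed after the values were seen, was 2.78, 3.19 and 2.97 in the mimic libraries, against 1.56, 1.57 and 1.40 in the mimics-NC libraries. ENSA kept its call without each library in turn, with log2 differences of 0.44 to 0.51.

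All 6 mitotic kinases and their cofactors fell. AURKA (chr20:56369389-56392337), the kinase Aurora A of centrosomes and spindle poles, had 48.6, 46.9 and 44.7 RPKM in the mimic libraries, against 69.0, 63.8 and 65.1 RPKM in the mimics-NC libraries. TPX2 (chr20:31739271-31801805), which activates Aurora A on spindle microtubules, had 55.3, 58.1 and 55.9 RPKM in the mimic libraries, against 84.2, 78.5 and 79.1 RPKM in the mimics-NC libraries. Both fell by nearly the same amount, with log2 differences of -0.49 ± 0.0459 (SE; adjusted p = 0.000777) for AURKA and -0.51 ± 0.0401 (SE; adjusted p = 0.000449) for TPX2. The ratio of TPX2 to AURKA was 1.14, 1.24 and 1.25 in the mimic libraries, against 1.22, 1.23 and 1.21 in the mimics-NC libraries, and the groups overlapped in it.

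PLK1 (chr16:23677656-23690367), the Polo-like kinase that drives mitotic entry, had 6.35, 8.11 and 6.86 RPKM in the mimic libraries, against 11.7, 10.0 and 9.79 RPKM in the mimics-NC libraries. The groups did not overlap, and the log2 difference was -0.54 ± 0.0995 (SE; adjusted p = 0.0105). BORA (chr13:72727749-72756198), with which Aurora A activates PLK1, was the member with the fewest reads and had 1.40, 1.33 and 1.52 RPKM in the mimic libraries, against 2.08, 1.77 and 1.98 RPKM in the mimics-NC libraries. The groups lay apart, with a log2 difference of -0.35 ± 0.0765 (SE; adjusted p = 0.0197). It lost the call without mimic replicate 1 or 2 or mimics-NC replicate 1 or 3 (adjusted p up to 0.0650). It shares 1180 exon bases with DIS3 on the opposite strand, which had 4626 reads on average against 240 of BORA and was not called (0.042). PLK4 (-0.39), the kinase of centriole duplication, and NEK2 (-0.41), a kinase of centrosome separation, fell as well.

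**Figure D3:**
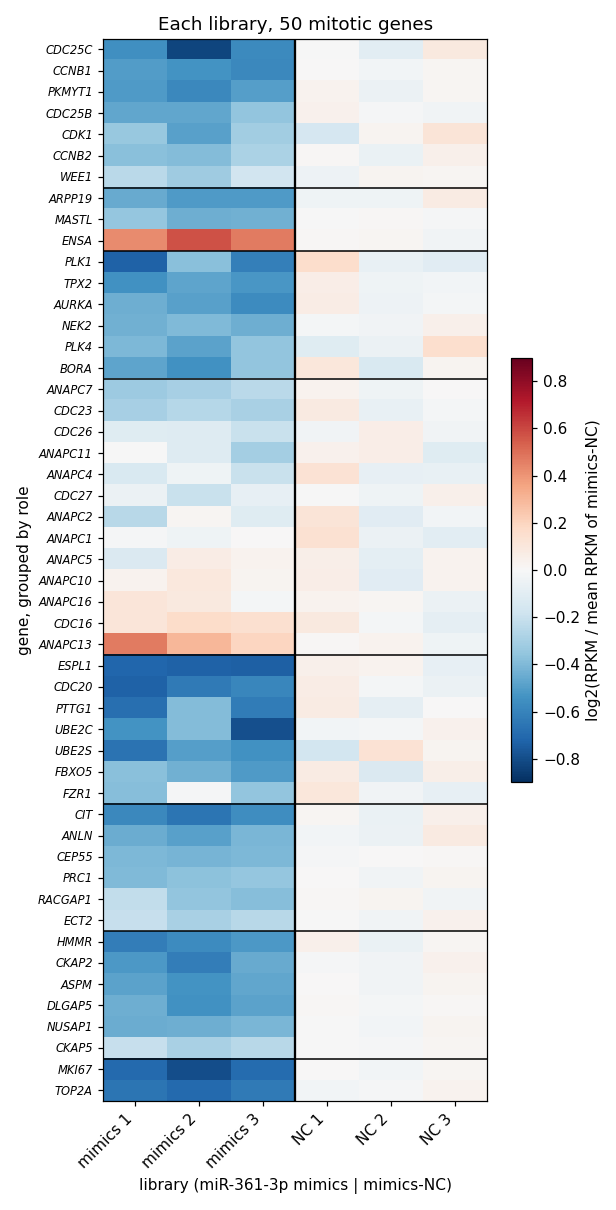
Each library's RPKM relative to the mean of the mimics-NC libraries, on a log2 colour scale, for the 50 members in blocks by role, with the 3 miR-361-3p mimics libraries left of the 3 mimics-NC libraries. The mimic libraries are blue (lower) throughout the regulated blocks, ENSA and ANAPC13 are red (higher) in all 3, and most APC/C core subunits are pale.

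Among the 13 APC/C core subunits, 2 fell, 1 rose and 10 were not called, and their log2 differences ran between -0.28 and 0.31. The subunits lay apart in 4 cases below and in 2 cases above, and overlapped in 7. Of the 13158 genes tested, 9.85% fell, 11.7% rose and 10323 were not called, while 19.1% lay wholly below and 22.3% wholly above. A lack of calls was thus also the rule in the whole table. ANAPC7 (chr12:110372900-110403730), a subunit with tetratricopeptide repeats, had 10.4, 10.6 and 10.97 RPKM in the mimic libraries, against 13.3, 12.7 and 13.05 RPKM in the mimics-NC libraries. The mimic libraries all lay lower, and the log2 difference was -0.28 ± 0.0388 (SE; adjusted p = 0.00364). CDC23 (chr5:138187648-138213343), the tetratricopeptide subunit APC8, had 12.0, 12.3 and 12.0 RPKM in the mimic libraries, against 15.6, 14.0 and 14.5 RPKM in the mimics-NC libraries. It fell by about the same amount, -0.27 ± 0.0457 (SE; adjusted p = 0.00734), and shares 68 exon bases with KIF20A on the opposite strand, which fell (-0.79). ANAPC13 (chr3:134477706-134486716), a small subunit that stabilises the tetratricopeptide arm, had 16.8, 14.9 and 13.9 RPKM in the mimic libraries, against 12.2, 12.4 and 11.8 RPKM in the mimics-NC libraries. All mimic libraries were higher, with a log2 difference of 0.31 ± 0.0674 (SE; adjusted p = 0.0197). The call was lost without mimics-NC replicate 2 (adjusted p = 0.0523) or replicate 3 (adjusted p = 0.0659).

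The 10 core subunits that did not pass included the catalytic centre. ANAPC2 (chr9:137174784-137188549), its cullin, had 2.08, 2.51 and 2.29 RPKM in the mimic libraries, against 2.67, 2.30 and 2.43 RPKM in the mimics-NC libraries, with overlapping groups and a 95% interval of the log2 difference of -0.28 to 0.095. ANAPC11 (chr17:81890790-81900991), its RING finger, had 7.98, 7.36 and 6.44 RPKM in the mimic libraries, against 8.20, 8.34 and 7.41 RPKM in the mimics-NC libraries, also with overlapping groups (-0.32 to 0.06). ANAPC10 (chr4:144967112-145098541), which helps to hold substrates, had 5.91, 6.19 and 5.88 RPKM in the mimic libraries, against 6.03, 5.39 and 5.92 RPKM in the mimics-NC libraries, with a log2 difference of 0.049. CDC26 (chr9:113255835-113275589), a chaperone of the CDC16 subunit and the most abundant of the core at a mean of 62.1 RPKM in the mimic libraries and 68.5 RPKM in the mimics-NC libraries, had a log2 difference of -0.14 ± 0.0428 (SE; adjusted p = 0.0560) with the groups apart. CDC16 (chr13:114234887-114272723), another tetratricopeptide subunit, had a log2 difference of 0.14 ± 0.0489 (SE; adjusted p = 0.0879) with the groups apart above. CDC16 passed the test without mimics-NC replicate 1 (adjusted p = 0.0336) and by limma-voom on recovered reads (adjusted p = 0.0338). CDC26 passed it by limma-voom too (adjusted p = 0.0257).

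The scaffold subunit ANAPC1 (-0.01) and ANAPC5 (-0.0069) had differences near 0. The scaffold subunit ANAPC4 (-0.11), the tetratricopeptide subunit CDC27 (-0.10) and the small subunit ANAPC16 (0.057) also did not pass. Interval ends for these 5 genes lay between -0.27 and 0.17, so falls of the size seen in most regulated genes lay outside them. The core median was -0.091 with all libraries, -0.035 without mimic replicate 1 and -0.043 without mimics-NC replicate 1.

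**Figure D4:**
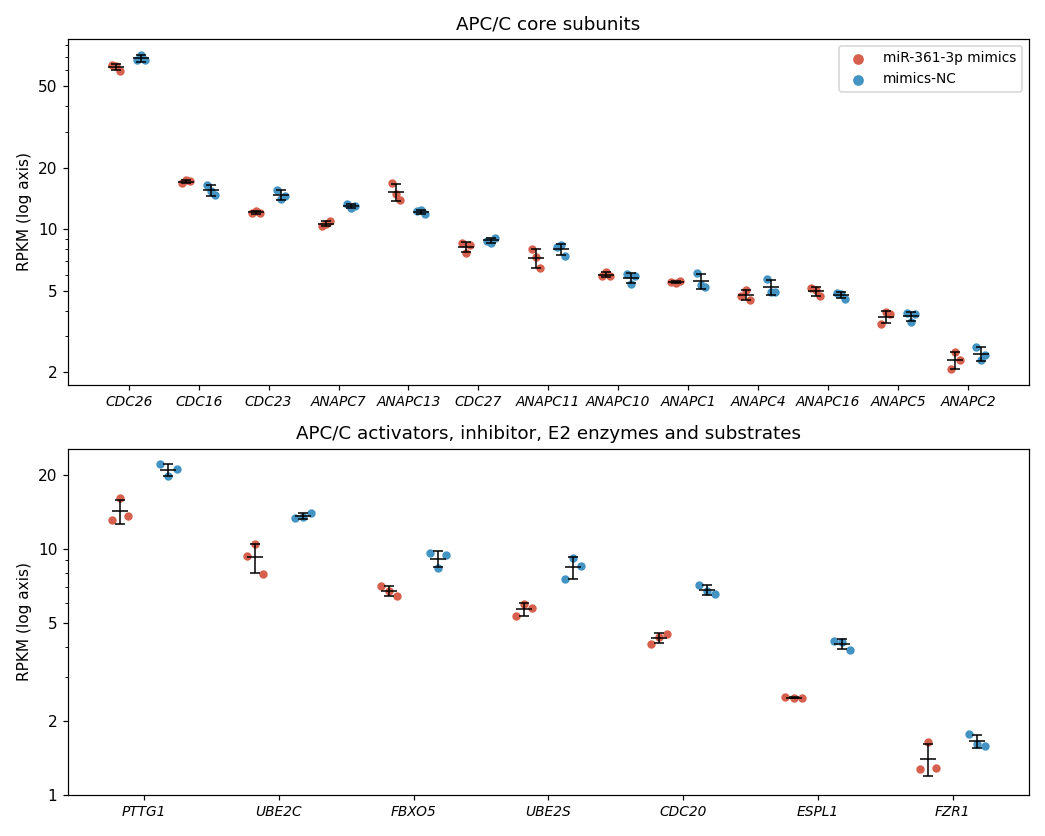
RPKM on a log axis of the 13 APC/C core subunits (top) and of the APC/C activators, inhibitor, E2 enzymes and substrates (bottom) in each library, with miR-361-3p mimics left of mimics-NC and black bars for mean and SD (n = 3). In the top panel most pairs overlap, and in the bottom panel all pairs but FZR1 are apart, with the mimic libraries lower.

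Of the 7 genes that activate, inhibit, charge or are destroyed by the APC/C, 6 fell. CDC20 (chr1:43358955-43363203), the activator used in metaphase, had 4.11, 4.38 and 4.52 RPKM in the mimic libraries, against 7.13, 6.71 and 6.55 RPKM in the mimics-NC libraries. The groups lay far apart, with a log2 difference of -0.59 ± 0.0529 (SE; adjusted p = 0.000650). FZR1 (chr19:3506273-3538330), the activator CDH1 of late mitosis and G1, had 1.26, 1.64 and 1.29 RPKM in the mimic libraries, against 1.77, 1.61 and 1.57 RPKM in the mimics-NC libraries. Mimic replicate 2 lay among the mimics-NC libraries, and the log2 difference was -0.19 ± 0.0938 (SE; adjusted p = 0.203), which did not pass. The difference between the changes of both activators was not tested. FBXO5 (chr6:152970519-152983579), the inhibitor EMI1 that holds the APC/C off before mitosis, had 7.03, 6.76 and 6.42 RPKM in the mimic libraries, against 9.60, 8.34 and 9.47 RPKM in the mimics-NC libraries, a log2 difference of -0.41 ± 0.0632 (SE; adjusted p = 0.00512).

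The E2 enzymes that bring ubiquitin to the complex both fell. UBE2C (chr20:45812576-45816957), which starts the chains, had 9.37, 10.4 and 7.90 RPKM in the mimic libraries, against 13.4, 13.4 and 14.0 RPKM in the mimics-NC libraries. UBE2S (chr19:55399745-55407777), which extends them, had 5.32, 5.96 and 5.76 RPKM in the mimic libraries, against 7.51, 9.19 and 8.55 RPKM in the mimics-NC libraries. Neither gene's groups overlapped, and the log2 differences were -0.55 ± 0.0903 (SE; adjusted p = 0.00673) for UBE2C and -0.53 ± 0.0777 (SE; adjusted p = 0.00440) for UBE2S. PTTG1 (chr5:160421822-160428744), the securin that the APC/C destroys at anaphase, had 13.1, 16.1 and 13.6 RPKM in the mimic libraries, against 22.1, 19.9 and 21.0 RPKM in the mimics-NC libraries. ESPL1 (chr12:53268299-53293643), the separase that securin holds inactive and that cuts cohesin, had 2.502, 2.47 and 2.47 RPKM in the mimic libraries, against 4.23, 4.19 and 3.89 RPKM in the mimics-NC libraries. ESPL1 had the closest mimic libraries of all these genes and the lower log2 difference, -0.63 ± 0.0505 (SE; adjusted p = 0.000488), while that of PTTG1 was -0.55 ± 0.0791 (SE; adjusted p = 0.00406).

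All 6 genes of cytokinesis fell, with log2 differences between -0.55 (CIT) and -0.24 (ECT2). PRC1 (chr15:90966038-90995629), the bundler of antiparallel microtubules at the central spindle, was the most abundant of them and had 93.3, 94.99 and 96.5 RPKM in the mimic libraries, against 123, 120.4 and 125 RPKM in the mimics-NC libraries. The groups were well apart, and the log2 difference was -0.37 ± 0.0319 (SE; adjusted p = 0.000585). Its antisense neighbour PRC1-AS1, which shares 406 exon bases with it, fell too (-0.39). CIT (chr12:119685790-119877291), citron kinase of the midbody, had 4.52, 4.28 and 4.58 RPKM in the mimic libraries, against 6.83, 6.48 and 6.95 RPKM in the mimics-NC libraries. Its fall, -0.55 ± 0.0474 (SE; adjusted p = 0.000585), was the deepest of the group. ANLN (chr7:36389806-36453791), anillin, which links actin, myosin and septins in the ring, had 37.5, 36.4 and 38.4 RPKM in the mimic libraries, against 50.1, 49.2 and 54.0 RPKM in the mimics-NC libraries, a log2 difference of -0.44 ± 0.0447 (SE; adjusted p = 0.00107).

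CEP55 (chr10:93496632-93529092), which brings the abscission machinery to the midbody, had 30.4, 30.0 and 30.3 RPKM in the mimic libraries, against 39.99, 40.2 and 40.4 RPKM in the mimics-NC libraries. The spread within each group was under 1 RPKM, and the log2 difference was -0.40 ± 0.0290 (SE; adjusted p = 0.000323). RACGAP1 (chr12:49976923-50033136), the GTPase-activating subunit of centralspindlin, had 12.4, 11.3 and 11.1 RPKM in the mimic libraries, against 14.5, 14.7 and 14.1 RPKM in the mimics-NC libraries. ECT2 (chr3:172750682-172821474), the exchange factor that activates RhoA at the cell equator, had 28.4, 26.8 and 27.6 RPKM in the mimic libraries, against 32.7, 32.1 and 33.6 RPKM in the mimics-NC libraries. Both passed with groups apart, at -0.31 ± 0.0495 (SE; adjusted p = 0.00598) for RACGAP1 and -0.24 ± 0.0369 (SE; adjusted p = 0.00484) for ECT2, and ECT2 had the smallest fall of the regulated genes.

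All 6 spindle and microtubule genes fell. HMMR (chr5:163460203-163491945), which helps to assemble and position the spindle, had 26.02, 27.1 and 28.0 RPKM in the mimic libraries, against 41.3, 38.5 and 40.5 RPKM in the mimics-NC libraries. It fell the furthest of them, -0.56 ± 0.0427 (SE; adjusted p = 0.000423), and HMMR-AS1 on the opposite strand, with 113 shared exon bases, fell as well (-0.53). NUSAP1 (chr15:41332694-41381050), which bundles microtubules near chromosomes, had 61.0, 61.4 and 62.6 RPKM in the mimic libraries, against 83.1, 82.1 and 84.8 RPKM in the mimics-NC libraries, a log2 difference of -0.43 ± 0.0308 (SE; adjusted p = 0.000323). ASPM (chr1:197084128-197146694), a protein of spindle poles whose loss causes microcephaly, had 18.2, 17.5 and 18.4 RPKM in the mimic libraries, against 25.6, 24.9 and 25.8 RPKM in the mimics-NC libraries, a log2 difference of -0.48 ± 0.0352 (SE; adjusted p = 0.000346). These groups did not overlap.

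CKAP2 (-0.51), a spindle-associated protein, and DLGAP5 (-0.48), a kinetochore fibre protein also called HURP, fell with intervals wholly below -0.39. CKAP5 (chr11:46743048-46846308), a microtubule polymerase used in every phase of the cycle, had 32.4, 30.4 and 31.4 RPKM in the mimic libraries, against 37.2, 37.1 and 37.7 RPKM in the mimics-NC libraries. It fell by less, -0.25 ± 0.0348 (SE; adjusted p = 0.00373), with the groups apart, and the difference from the other spindle genes was not tested.

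The genes of mitotic chromosomes had the lowest log2 differences of all members. MKI67 (chr10:128096659-128126385, minus strand), which coats mitotic chromosomes and marks cycling cells, had 92.8, 86.8 and 93.3 RPKM in the mimic libraries, against 151, 148 and 153 RPKM in the mimics-NC libraries. Its log2 difference was -0.73 ± 0.0389 (SE; adjusted p = 0.000157), and its 3′ UTR holds the 8mer site printed above. TOP2A (chr17:40388516-40417950), the topoisomerase that untangles sister chromatids, had 40.5, 39.5 and 41.3 RPKM in the mimic libraries, against 63.0, 63.5 and 65.5 RPKM in the mimics-NC libraries. Its log2 difference was -0.66 ± 0.0335 (SE; adjusted p = 0.000140), and it holds no site of miR-361-3p in its 3′ UTR. In both genes the groups were separated by many times the spread within a group.

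Most members held no site of miR-361-3p. Of the 50 members, 8 (16.0%) held a 7mer or 8mer site in the 3′ UTR of their GENCODE 29 transcript, against 23.5% of the 9575 genes tested that had one matched. The share with an 8mer was 8% of members and 5.20% of those genes, and the median 3′ UTR length was 787.5 bases in members and 1042 bases in those genes. No test of these shares was made. Of the 8 members with a site 3 fell, 1 rose and 4 were not called, and of the 42 without one 34 fell. Over all genes matched, 241 of 2251 with a site and 836 of 7324 without one fell. Among the regulated genes 3 of 31 held a site (CDC25B, MKI67 and PRC1), and the 28 without one all fell, with a median log2 difference of -0.49. Among the core subunits 3 of 13 held one (ANAPC11, ANAPC16 and CDC27), and none of these 3 passed the test. FZR1, with an 8mer and 3 shorter sites, was not called. A match is a description of the letters and does not show that the microRNA binds there.

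Matches to the CHR were more frequent in promoters of the regulated genes than in those of the core subunits. RefSeq promoters were found for 44 of the 50 members, and WEE1, PKMYT1, AURKA, TPX2, UBE2C and RACGAP1 were not matched. The CHR was present in 18 of 26 regulated promoters (69.2%), 2 of 13 core promoters (15.4%) and 11.4% of the 8067 promoters of genes tested. CCAAT boxes were present in 20 of 26 regulated promoters (76.9%), 5 of 13 core promoters (38.5%) and 37.8% of promoters of genes tested. Both motifs together stood in 16 regulated promoters (61.5%), in none of the core promoters and in 5.12% of promoters of genes tested. Over all 27305 promoters of the RefSeq table, 16.6% held a CHR, 35.7% a CCAAT box and 8.69% an E2F-like motif.

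Regulated genes fell with and without a CHR match in these windows. The 18 with a match had a median log2 difference of -0.46 (-0.73 to -0.24), and the 8 without one had -0.52 (-0.55 to -0.37). Only TTTGAA and TTCGAA were searched, at 1 start site a gene, so these 8 may hold a CHR of another form or place. Whether the fall depends on the CHR was not tested. CDC25B, CDC25C, FBXO5 and CKAP2 held neither a CHR nor a CCAAT box in these windows and still fell. E2F-like motifs, in contrast, stood in 4 of 26 regulated promoters (15.4%), 4 of 13 core promoters (30.8%) and 14.2% of promoters of genes tested. Of the 29 CHR matches in regulated promoters, 17 lay within the stretch between 75 bases before and 50 bases after the start. No share for promoters of genes tested is set beside this count, and clustering near the start was not tested. In 1 member, MKI67, matches to different motifs shared bases. The classes were chosen with knowledge of which genes such complexes are known to regulate.

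**Figure D5:**
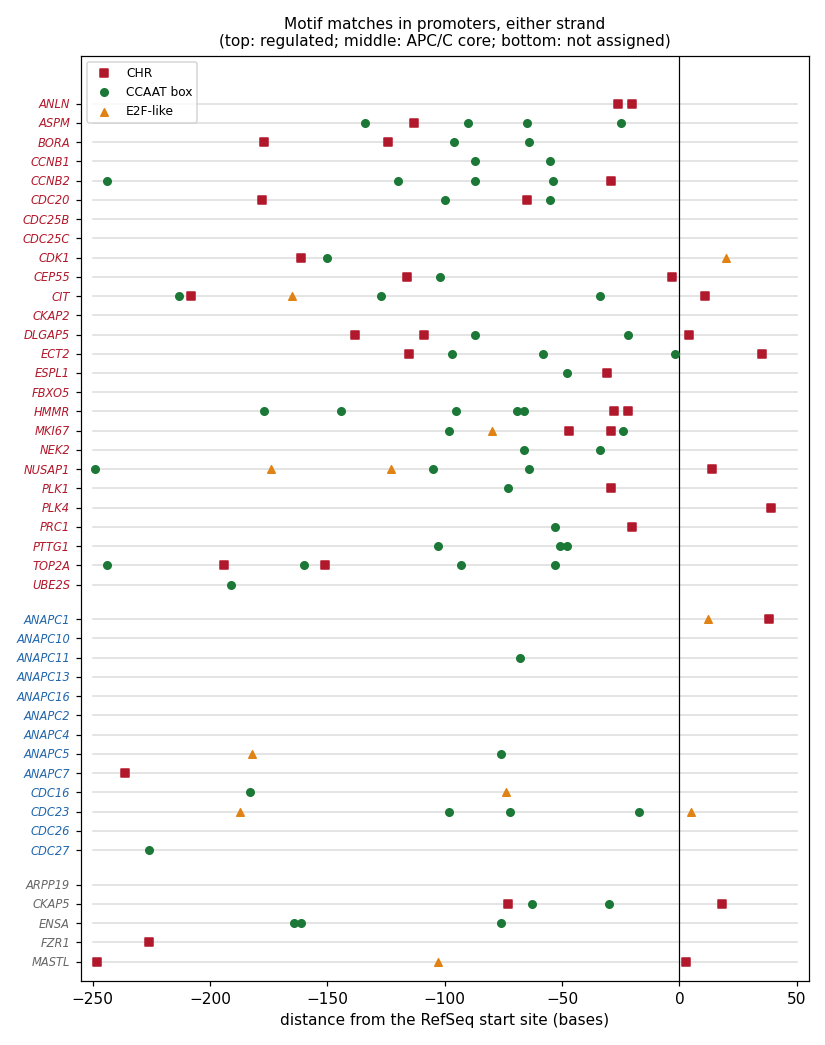
Position of CHR, CCAAT and E2F-like matches on either strand relative to the RefSeq start site (distance in bases) for the 44 members with a promoter matched, 1 line a gene. CHR squares near the start with CCAAT circles upstream are common among the 26 regulated genes at the top and rare among the 13 core subunits in the middle.

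Other genes of the same pathways moved less as a group. Of 80 such genes, all tested, 21 fell and 9 rose, where 9.85% of all genes tested fell and 11.7% rose. The median log2 difference of the 80 was -0.062. The count of the 80 that rose was 3 to 5 without any 1 library, and it was lowest without mimic replicate 3 or mimics-NC replicate 2. Among 15 spindle factors 8 fell and none rose. KIFC1, a minus-end motor that bundles spindle microtubules, had 29.3, 29.8 and 29.9 RPKM in the mimic libraries, against 50.7, 48.9 and 48.8 RPKM in the mimics-NC libraries. Its log2 difference was -0.73 ± 0.0320 (SE; adjusted p = 9.52e-05), about that of MKI67. GTSE1, a microtubule-binding regulator of the spindle, had a log2 difference of -0.68 ± 0.0522 (SE; adjusted p = 0.000423), and FAM83D, which brings a casein kinase to the spindle, one of -0.63 ± 0.0747 (SE; adjusted p = 0.00184).

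Genes listed with the APC/C and with CDK1 that passed the test all fell, but these lists are short. For comparison, 9.85% of all genes tested fell and 11.7% rose. Of 8 genes listed with the APC/C, 4 fell. Among them were UBE2D3 (-0.50), a general E2 enzyme, and TRIP13 (-0.25), which dismantles the checkpoint complex. DCAF7 (-0.39), a WD-repeat adaptor of other kinases and ligases rather than a partner of the APC/C, was also among them. These had the largest differences of the 4. Of 8 partners of CDK1, CCNF (-0.55), a cyclin-like F-box protein, and CDC25A (-0.30), a phosphatase of G1 and S phase CDKs, fell. The other 6 were not called. In 3 of the 8 all mimic libraries lay below all mimics-NC libraries, and in 1, CDK7, they lay above (0.25, adjusted p = 0.0758 by limma). The SCF ligase had 2 genes lower and 1 higher of 7, among them SKP2 (-0.43) and FBXW11 (-0.27), F-box proteins that fell, and FBXW7 (0.25), one that rose. Of the 10 genes of PP2A-B55 and PP1, 3 rose and 1 fell. PPP2R2A (0.20), the B55 alpha subunit that ENSA and ARPP19 inhibit, and PPP1CB (0.22), a catalytic subunit of PP1, rose, while PPP2R1B (-0.29), a PP2A scaffold, fell.

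Most ring, septin and abscission genes were not called, as held for 10323 of the 13158 genes tested. Over all genes tested, 9.85% fell and 11.7% rose. Of 18 ring and septin genes 4 fell, 1 rose and 13 were not called. DIAPH3 (-0.52), a formin that builds ring actin, PFN1 (-0.27), profilin, and RHOA (-0.24), the GTPase that ECT2 activates, fell. In the abscission machinery none of 14 genes fell, 4 rose and 10 were not called, and the difference between both lists was not tested. CHMP3, an ESCRT-III subunit, had 30.7, 31.2 and 31.02 RPKM in the mimic libraries, against 23.3, 23.4 and 23.1 RPKM in the mimics-NC libraries. The groups lay far apart, with a log2 difference of 0.41 ± 0.0297 (SE; adjusted p = 0.000352). TSG101 (0.25), which CEP55 recruits, and CHMP4B (0.15), the main filament subunit, also rose. These ESCRT proteins also serve endosomes and the repair of membranes in every phase of the cycle.

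Reads of several members cannot be assigned with certainty. Of the 50 genes, 20 share exon bases with a gene on the opposite strand, and the strand setting of the counting is not given in the sources used here. Within such pairs reads may have been mixed. MASTL shares 443 bases with YME1L1 (5834 reads on average against 1675 of MASTL), and ANAPC13 shares 284 with CEP63 (2739 reads against 1422). Neither YME1L1 (0.045) nor CEP63 (-0.062) was called. ANAPC7 and ANAPC11 also overlap a gene on their own strand.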

How the data were processed

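Huh7 libraries of 2 groups, 3 with miR-361-3p mimics and 3 with mimics-NC, were prepared with a stranded mRNA kit, per the labels' protocols. The authors deposited RPKM, which divides a gene's reads by its length in kilobases and by the library's assigned reads in units of 1000000, with gene lengths in bases and positions, other columns that the authors gave in the same table. Per the submitters' processing notes, Trimmomatic 0.36, featureCounts of Subread 1.5.1, edgeR 3.12.1 and GRCh38 were used. The sources used here do not give the aligner, the annotation release or the strand setting. No scaling between libraries beyond the total was present, and 100% of values came out as whole reads within 0.01 read. Pairs of libraries of a group had chi-square values of 4.15 to 9.38 times their degrees of freedom, above counting error.

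Values were taken as log2(RPKM + 0.5). Genes averaging 1 RPKM or more over the libraries (13158) were fitted with limma 3.58.1 (R 4.3.3) with an intensity trend and no block. Tests were two-sided with Benjamini-Hochberg adjustment across the whole table fitted, and an adjusted p under 0.05 counts as a call. The code was tested on simulated data. Limma-voom on the recovered reads, other pseudocounts, filters, scalings, a replicate block and leaving out each library were tried as alternatives. The members, their classes, the gene lists and the motifs were chosen with earlier results of these data known. Every member was named, and of each pathway list up to 3 called genes with the largest absolute log2 difference. Promoter and microRNA sequences are from RefSeq (GRCh38.p14), and 3′ UTRs are from GENCODE 29. The precursor MIR361 was not analysed here, and 1 site sequence is not reported here. Intervals cover the spread between these libraries.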

Additional observations from a re-analysis of the deposited data

How the results depend on the processing

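The fall of the members held under every alternative: 32 to 38 of those tested fell, and of the regulated genes only CDK1 and BORA ever missed the threshold. With other pseudocounts (0.1 and 1), no filter, a minimum of 5 RPKM, median-of-ratios or quantile scaling, limma-voom on recovered reads and the replicate block, 380 of 389 member results kept their direction and side of the threshold, 5 lost the call and 4 gained it. When 1 library was left out, 283 of 300 kept both, 12 lost the call, 1 gained it and 4 changed sign. Leave-one-out fits gave 35 to 37 members lower and 1 to 3 higher, 0 to 2 core subunits higher, 3 to 5 other pathway genes higher and a core median of -0.10 to -0.035. ANAPC1 (-0.051 to 0.053) and ANAPC5 (-0.046 to 0.045), never called, changed sign there. Without a filter 33707 genes shared the adjustment, 1 member (ENSA), 0 core subunits and 4 other pathway genes rose, and CDK1, WEE1, BORA and ANAPC13 lost their calls. By limma-voom 2 core subunits rose. CDC26 gained a call by limma-voom, by median-of-ratios scaling and at 5 RPKM. At a mean of at least 5 RPKM, which leaves fewer genes to test, 13 other pathway genes fell. Of all genes, 1539 rose and 1296 fell, against 870 and 846 without a filter, and 895 to 1193 and 885 to 990 when 1 library was left out. Median-of-ratios scaling gave 1356 and 1453, and limma-voom 2065 and 1756.

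Same-numbered libraries did not deviate together (correlations of -0.052, -0.016 and 0.023), so the replicate numbers were not taken as pairs. With the replicate block 36 members fell and 2 rose, 31 regulated genes fell, WEE1 lost its call (adjusted p = 0.0682), and 1034 of all genes rose and 942 fell. A gene of 2 kilobases at 1 RPKM rests on 70.0 to 106 reads a library, which limits BORA, FZR1 and the other low members most. The causes of these shifts were not tested.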

Other observations

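Ratios between members that act as partners or opponents were computed after the values had been seen, as a description with no test. CDC20 to FZR1, the activators of the APC/C, stood at 3.25, 2.68 and 3.51 in the mimic libraries, against 4.03, 4.17 and 4.17 in the mimics-NC libraries. CDC25C to WEE1, which push CDK1 in opposite directions, stood at 0.786, 0.685 and 0.734 in the mimic libraries, against 0.998, 0.894 and 1.02 in the mimics-NC libraries. Both ratios were lower in every mimic library than in any mimics-NC library. FBXO5 to CDC20, an inhibitor and an activator of the same complex, stood at 1.71, 1.54 and 1.42 in the mimic libraries, against 1.35, 1.24 and 1.44 in the mimics-NC libraries, and the groups overlapped. ANAPC13 to CDC23 stood at 1.40, 1.21 and 1.16 in the mimic libraries, against 0.786, 0.883 and 0.814 in the mimics-NC libraries.

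Named pseudogenes of members drew few reads. In 8 members 12 such pseudogenes were found in the table, and the highest, NEK2P4, had 2.20% of the reads of NEK2.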
